A study of Mus musculus with 12 samples.

Results

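MLE12 cells given an shRNA against the long noncoding RNA NANCI were compared with MLE12 cells given the scrambled shRNA that was run beside it. The arrays were taken by their titles, 3 with the NANCI shRNA and 3 with its scrambled control, which are 6 of the 12 arrays of the series. MLE12 is a line of mouse distal lung epithelium that carries the SV40 large T antigen, an oncoprotein known to bind p53 and the retinoblastoma protein. Cultures at 60% confluency took up lentivirus over 12 hours and were grown on for 65 hours, so every group, the controls included, had a pLKO.1 vector. The virus was packaged in HEK-293T, a line derived from human embryonic kidney. The medium of all groups held low serum, insulin, transferrin, selenite, hydrocortisone and beta-estradiol. The other 6 arrays, 3 with an shRNA against the RNA named LL34 and 3 with a scrambled shRNA of that set, are described only for contrast. All 12 arrays enter the estimate of spread behind each SE and p-value, and the choice of probe set per gene. Replicates are labelled biological, with nothing on whether the infections were separate. The p-values below therefore speak only of spread among these arrays, which may be technical.

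Nkx2-1 is a homeodomain transcription factor that sets the identity of the lung epithelium from its first appearance in the foregut and later keeps alveolar genes active. Nanci is a synonym, in the gene table used here, of Sfta3-ps, a noncoding gene beside Nkx2-1, and the comparison asks which RNAs changed when that transcript was targeted. Alveolar epithelium holds type 2 cells, which make surfactant, and flat type 1 cells, which carry gas exchange and lie on a shared basement membrane. In bulk RNA, fewer cells of a type and less RNA per cell cannot be told apart.

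Signals are log2 values, so a change of 1 is 2-fold, and changes are shRNA minus scrambled. Medians of the 6 arrays lay between 6.84 and 6.88, and each array correlated with its own group at 0.9927 or more on average. The 2 sets of arrays appear to have been normalized apart (the other 6 medians lay between 6.54 and 6.61). A change against all 6 scrambled arrays therefore also holds the difference between sets. It is given for most named genes whose call it ends or whose value it moves by over 1.5 times, and for lists where a count of 5 or more moves by over 1.5 times. Where it is not given for a gene, the value may still have moved. Over all named genes it gave 2531 rises and 1790 falls. The word "called" stands for a limma p, adjusted over all 41345 probe sets, under 0.05. "Rose" and "fell" are used of called genes, and SE is the standard error of the fit.

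The targeted RNA was the second deepest fall of all named genes. Sfta3-ps read 8.75, 9.19 and 9.01 on the shRNA arrays and 12.05, 11.83 and 11.81 on the scrambled arrays, so the groups lay far apart. It fell by 2.91 (SE 0.121, limma adjusted p = 1.72e-07), which left 13.3% of the scrambled level. Nkx2-1 read 10.18, 10.18 and 10.04 against 11.18, 11.12 and 11.10, again with no overlap, and fell by 1.00 (SE 0.0745, limma adjusted p = 4.95e-06). Both RNAs also fell more than after LL34 shRNA, by 2.24 for Sfta3-ps and 0.73 for Nkx2-1 in the difference between the changes (limma adjusted p = 7.43e-06 and 0.000529).

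**Figure D1:**
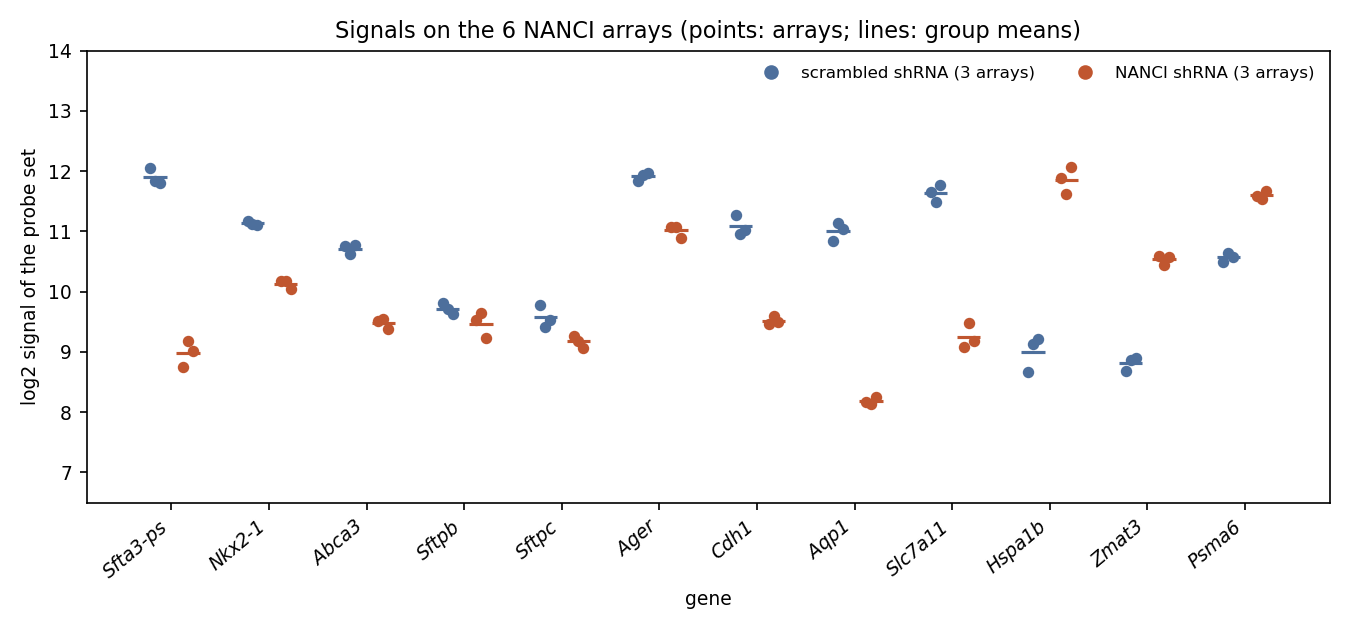
Log2 signals (vertical axis) of 12 genes on each of the 6 arrays, blue for scrambled and orange for NANCI shRNA, with lines at the group means. For 11 of these genes the groups do not overlap, while the arrays of Sftpb lie between 9.23 and 9.81 in both groups.

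The change was broad. Of all probe sets 19.9% were called, 10.3% higher and 9.6% lower. Of 22180 named genes, 5938 (26.8%) were called, 2919 higher (13.2%) and 3019 lower (13.6%), and the arrays of the groups did not overlap in 40.5%. Calls followed the level: with genes cut into 4 equal bins by mean signal, 2.09% were called in the lowest, then 7.09%, 41.5% and 56.4%. Among the 11090 genes above the median level, 49.0% were called, 24.2% higher and 24.7% lower, and these are the shares to read beside lists of well-expressed genes. The median change of all named genes was 0.0042, the median rise 0.43 and the median fall −0.47. Most changes were thus below 2-fold: 129 genes rose and 281 fell by at least 1. At 2 or more on the log2 scale there were 4 rises and 16 falls among named genes, but 22 rises and 19 falls among all 41345 probe sets, which include those without a symbol and further probe sets of named genes.

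**Figure D2:**
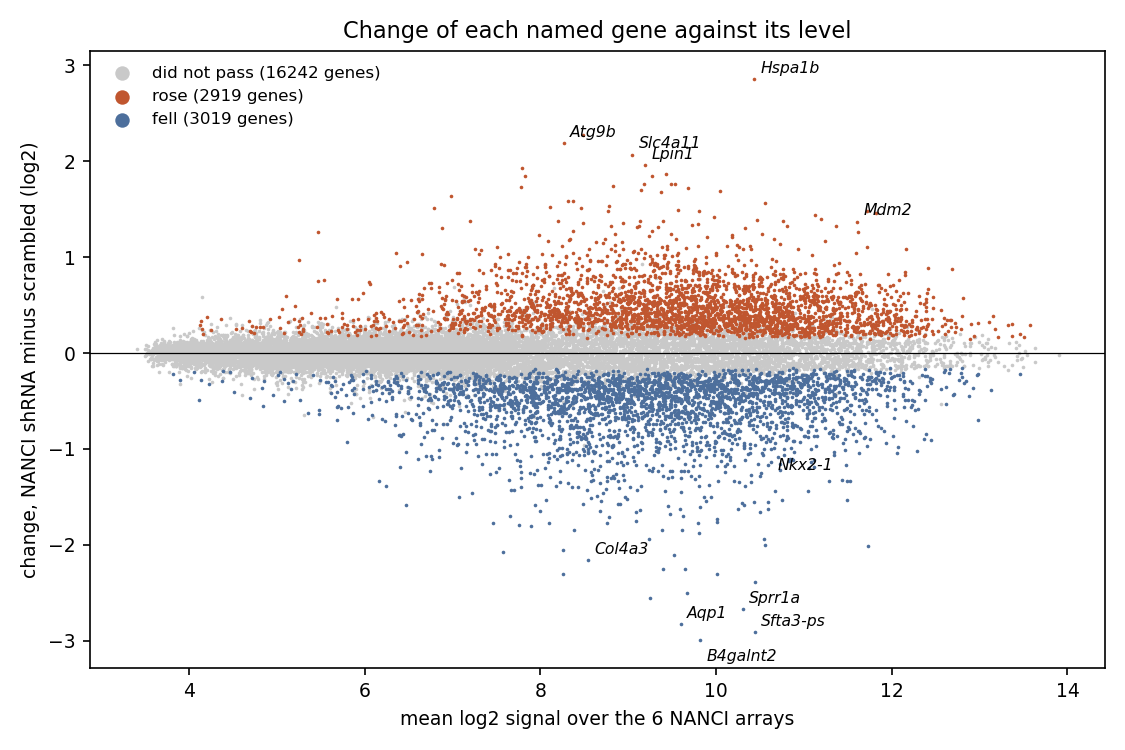
Change of each named gene (vertical axis, log2, shRNA minus scrambled) against its mean log2 signal over the 6 arrays (horizontal axis), with called rises in orange and called falls in blue. Called genes thin out at low signals, and more points lie below −1 than above 1.

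Lung transcription factors changed in both directions. Of 38 measured genes of the lung endoderm list, 7 rose and 12 fell, with a median of −0.01. The forkhead repressor gene Foxp2 fell by 1.33 (SE 0.102), from readings of 9.16 to 9.38 to readings of 7.80 to 8.01. Nfib, a nuclear factor needed for lung maturation, fell by 1.02 (SE 0.0648). Foxa1 and Gata6, partners of Nkx2-1 in the endoderm, fell by 0.52 and 0.29, and by 1.37 and 0.54 after LL34 shRNA. The difference between the changes was called for Foxa1 (0.84, limma adjusted p = 0.000132) and not for Gata6 (0.25, 0.0642). Sox9, a distal tip factor, fell by 0.59 after NANCI shRNA. Foxa2 rose by 0.29, and against all 6 scrambled arrays it read 0.20 with a limma adjusted p of 0.134. Id2, a distal progenitor gene, rose by 1.24 (0.61 against all 6 scrambled arrays, adjusted p = 0.229), and the Ets factors Etv4 and Etv5, which relay FGF signals, rose by 1.16 and 0.60. Etv5 read 0.94 against all 6 scrambled arrays (adjusted p = 0.00803). A dimmer probe set of Etv5 read 0.08 (adjusted p = 0.648). Cebpa, a regulator of alveolar maturation, read −0.29 with its groups apart and an adjusted p of 0.154. With all 6 scrambled arrays Cebpa read 0.05 (adjusted p = 0.866). Sox2, an airway factor, was dim at 5.50 to 5.65 in all 6 arrays.

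Markers of the distal lung epithelium were mostly bright, with exceptions. The epithelial genes Nkx2-1, Foxa2, Cdh1 (E-cadherin), Krt8 and Krt19, the type 1 markers Ager, Aqp5 and Pdpn and the type 2 markers Abca3, Sftpb and Sftpc stood between percentiles 81.1 and 96.6 by signal, and the type 1 marker Hopx at 69.2. These percentiles are of all 41345 probe sets, which include those without a symbol, and not of named genes. Epcam and Krt18, both epithelial genes, were dim at 6.37 and 6.71 in scrambled cells, as were the surfactant genes Sftpa1 and Sftpd and the type 2 cell gene Lamp3, at 6.37, 6.33 and 5.60. Among 20 defining markers of club, ciliated, basal and endothelial cells, fibroblasts and leukocytes, 2 were called. Dcn, a matrix proteoglycan gene, read 12.90 in scrambled cells and fell by 0.91, and Cd68, a lysosomal protein gene of macrophages, rose by 0.88 from 8.47. The other 18 lay between percentiles 8.21 and 71.1 of all probe sets by signal. The other leukocyte markers Ptprc, Cd3e and Csf1r stayed near 5.46, 6.38 and 6.57. By whole lists, 2 of 14 leukocyte genes, Cd68 and Cd14, rose and 0 fell, 0 of 15 endothelial genes rose and 2 fell, and 0 of 24 mesenchymal genes rose and 5 fell. Of ciliated, basal and club genes 1 of 19, 0 of 15 and 0 of 19 rose and 1, 1 and 2 fell. The part of such cells in the results was not tested.

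Most genes of the type 2 cell and surfactant list were not called, and 3 fell deeply. Sftpb, a surfactant protein gene, read 9.53, 9.64 and 9.23 against 9.81, 9.72 and 9.63, so the groups overlapped (change −0.25, SE 0.122, limma adjusted p = 0.203). Sftpc, another such gene, read 9.27, 9.19 and 9.07 against 9.78, 9.42 and 9.53, with no overlap (−0.40, SE 0.182, adjusted p = 0.175). Against all 6 scrambled arrays Sftpb read 0.09 (adjusted p = 0.769) and Sftpc −0.89 (0.0603), again with no call. Abca3, which loads lipid into lamellar bodies, read 9.52, 9.55 and 9.38 against 10.76, 10.62 and 10.77. Abca3 fell by 1.24 (SE 0.066, adjusted p = 6.92e-07). Ctsh, a protease that processes surfactant proteins, fell by 1.52 and Cxcl15, the lung chemokine lungkine, by 1.5. Of the 21 list members, 2 rose, these 3 fell (14.3%) and 16 were not called, against a median of −0.05. Only 9 of the 21 lay above the median level of named genes, against 22 of the 25 genes of the type 1 list below. Since calls followed the level, the missing calls do not show that the dim members were unchanged. Outside that list, Agpat2 and Chpt1, which build glycerolipids and phosphatidylcholine, fell by 1.08 and 1.24, and Plin2, a lipid droplet coat gene, rose by 1.30. These 3 belong to the lipid synthesis list, which was split, with 11 rises and 10 falls among 35 genes (7 and 8 against all 6 scrambled arrays).

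Markers of type 1 cells fell and none rose. Of 25 measured members, 17 fell, with a median of −0.63. The receptor gene Ager, the membrane glycoprotein gene Pdpn, the homeodomain gene Hopx and the water channel gene Aqp5, all defining markers of that cell, fell by 0.90, 0.87, 0.91 and 0.60. Clic5, a chloride channel family gene, fell by 1.88 and Scnn1g, an epithelial sodium channel subunit gene, by 1.12. The count with all 6 scrambled arrays was 10 of 25, and Ager (−0.44, adjusted p = 0.235), Hopx (−0.56, adjusted p = 0.105) and Scnn1g (−0.57, adjusted p = 0.205) were among those no longer called. After LL34 shRNA 10 of the 25 fell and 1 rose (median −0.17), and 8 fell after both shRNAs, so the falls were partly shared.

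Basement membrane and integrin genes fell as well, in a list that shares members with the type 1 list, among them Col4a3 and Col4a4. Of 37 measured genes, 22 fell and 6 rose, and the median was −0.53. Col4a3 encodes an alpha chain of the type IV collagen network of alveoli and glomeruli. It read 7.46, 7.34 and 7.58 against 9.56, 9.69 and 9.60, with every shRNA array far below every scrambled one. Col4a3 fell by 2.16 (SE 0.0651, limma adjusted p = 6.24e-08). Its partner Col4a4 fell by 1.71 and the more widespread chain gene Col4a1 by 1.39. Itgb8, an integrin subunit that activates latent TGF-beta, read 7.04, 7.28 and 7.12 against 8.75, 8.67 and 8.74 and fell by 1.58. Against all 6 scrambled arrays the list held 12 falls and 3 rises. From the mesenchymal list, Tnc, the matricellular glycoprotein tenascin C, fell by 1.79, and fibronectin (Fn1) by 0.50. Fn1 was then not called against all 6 (−0.17, adjusted p = 0.53).

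Adhesion and junction genes fell in smaller shares. E-cadherin (Cdh1), the core of epithelial adherens junctions, read 9.46, 9.60 and 9.5 against 11.27, 10.96 and 11.02 and fell by 1.56 (SE 0.0834, limma adjusted p = 6.92e-07). A much dimmer probe set of Cdh1 fell by 0.49. The desmosome gene Dsp and the plakin gene Ppl fell by 1.16 and 1.18, the neural adhesion gene Ncam1 by 1.94, N-cadherin (Cdh2) by 0.50 and the keratin gene Krt80 by 1.85. Of 33 adherens junction, desmosome and keratin genes, 8 fell and 3 rose, a share of falls (24.2%) near that of all genes above the median level. Of 28 tight junction genes, 7 fell and 1 rose (4 and 0 against all 6 scrambled arrays). Cldn1, a sealing claudin, fell by 1.77, Pard6b, a polarity gene, by 1.04, Cldn12 by 0.66 and occludin (Ocln) by 0.48. With all 6 scrambled arrays as control, Cldn1 (−0.95, adjusted p = 0.158) and Cldn12 (−0.39, adjusted p = 0.111) were not called.

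Transport, guidance and protease genes held several of the deepest changes. The water channel gene Aqp1 read 8.17, 8.13 and 8.25 against 10.84, 11.14 and 11.04, nowhere near overlapping. Aqp1 fell by 2.83 (SE 0.0891, limma adjusted p = 6.73e-08), and of 41 ion and water transport genes 14 fell and 4 rose. Slc4a11, a membrane transporter of that list, rose by 2.07. Outside it, Slc19a2, a thiamine transporter, rose by 1.69. Among 59 semaphorin, ephrin and netrin genes, 22 fell and 7 rose. The semaphorin co-receptor gene Nrp2 read 9.17, 9.22 and 9.05 against 10.92, 10.84 and 10.85, without overlap, and fell by 1.73. The ligand genes Sema3d and Sema3a fell by 1.34 and 1.07 and the receptor gene Plxna2 by 0.95. After LL34 shRNA Plxna2 fell as well, by 0.97. Of the 59 guidance genes, 24 fell and 3 rose there, and 14 fell after both shRNAs.

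Of 35 genes of plasminogen activators, serpins and matrix proteases, 3 rose and 9 fell (3 and 5 against all 6 scrambled arrays). The share of falls (25.7%) was near the 24.7% of genes above the median level, where 15 of the 35 lay. Urokinase and its receptor were among the rises. Plau, which encodes urokinase, read 9.88, 9.83 and 9.74 against 8.60, 8.24 and 8.47 and rose by 1.38 (SE 0.123). Its receptor gene Plaur read 9.83, 9.45 and 9.59 against 8.30, 8.24 and 8.26 and rose by 1.36 (SE 0.114). The limma adjusted p-values were 1.49e-05 and 1.05e-05, and in neither gene did the groups overlap. The protease gene Adamts9 fell by 1.07, the elastase inhibitor gene Serpinb1a by 1.85 and the metalloproteinase inhibitor gene Timp3 by 1.04 (−0.63 against all 6 scrambled arrays, adjusted p = 0.068). Serpinb1a is not in that list. Of 38 glycosyltransferase genes, 9 fell and 2 rose (5 and 1 against all 6 scrambled arrays). Here too the share of falls (23.7%) was near that of genes above the median level, where 23 of the 38 lay. The galactosyltransferase gene B4galt1 fell by 0.93, the N-acetylglucosaminyltransferase genes B3gnt5 by 0.81 and B3gnt3 by 0.71, beside B4galnt2, which makes the Sda antigen and had the deepest fall of all (−2.99). B3gnt5 read −0.47 against all 6 scrambled arrays (adjusted p = 0.143).

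**Figure D3:**
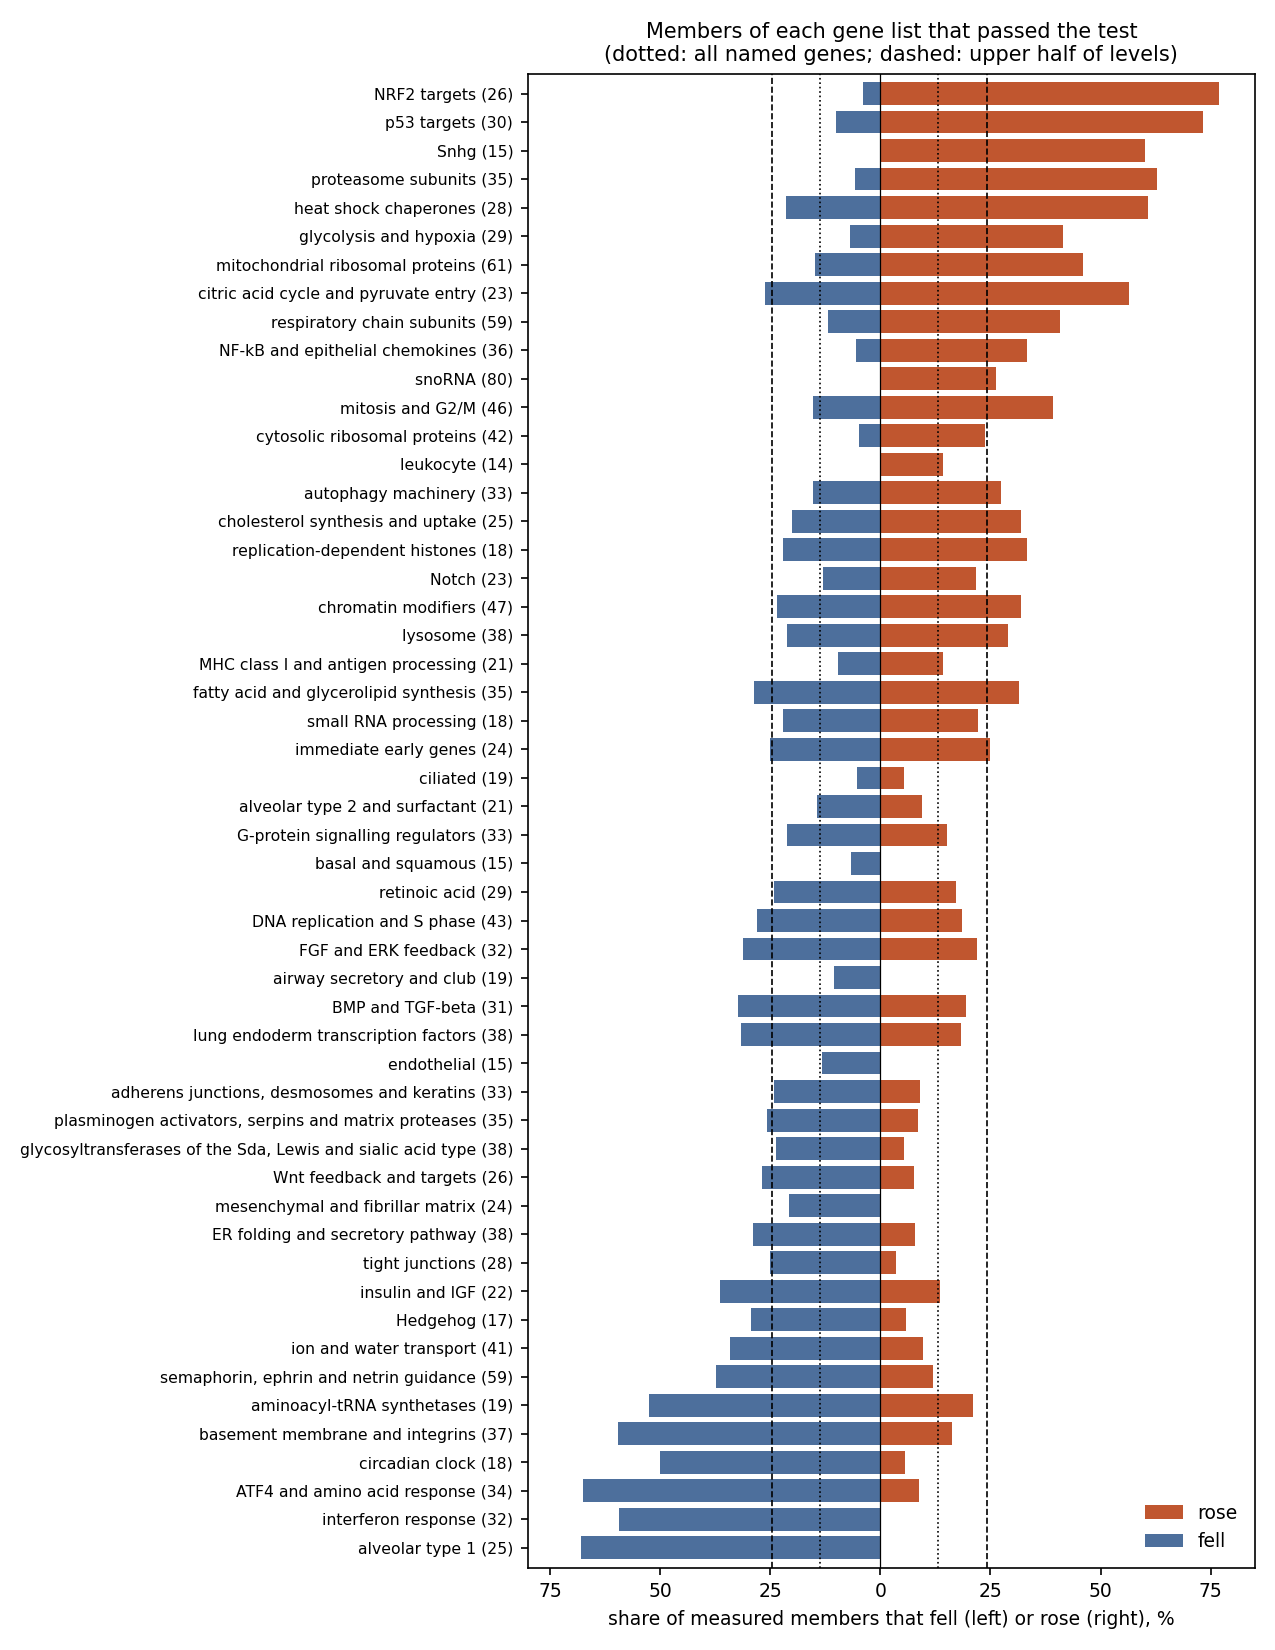
Share of measured members of each gene list or RNA class that fell (blue, left) or rose (orange, right) after NANCI shRNA, in percent, with the number measured in parentheses. Dotted lines mark the shares of all named genes (13.6% fell, 13.2% rose) and dashed lines those of genes above the median level (24.7% and 24.2%). The longest bars to the right are NRF2 and p53 targets, and the longest to the left are alveolar type 1 and ATF4 genes.

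More heat shock and proteasome genes rose than fell. Of 28 heat shock chaperone genes, 17 rose and 6 fell (median 0.36). The inducible HSP70 gene Hspa1b read 11.88, 11.63 and 12.07 against 8.66, 9.13 and 9.22, and its near-identical copy Hspa1a read 7.39, 7.40 and 7.81 against 6.07, 6.58 and 6.05. Both rose, by 2.86 and 1.30, and their probe sets may share signal. The small heat shock gene Hspb1 rose by 1.32, on a dimmer probe set by 0.73, and the HSP40 gene Dnajb1 by 1.08. None of these 4 was called after LL34 shRNA except Hspb1, which fell there by 0.82. Of 35 proteasome subunit genes, 22 rose and 2 fell (median 0.37). The core particle gene Psma6 read 11.59, 11.54 and 11.67 against 10.49, 10.65 and 10.58, without overlap, and rose by 1.02. Psma1 and Psmb1, also of the core, rose by 0.94 and 0.85. The lid gene Psmd7 moved against them, with 10.85, 10.91 and 10.85 against 11.79, 11.58 and 11.72, a fall of 0.83. The proteasome list held, against all 6 scrambled arrays, 17 rises and 2 falls.

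The heat shock genes that rose included a neighbouring pair, Hspd1 and Hspe1, the mitochondrial HSP60 and HSP10, which are transcribed away from each other. Hspd1 rose by 0.76 and Hspe1 by 0.45. RefSeq promoter windows (build GRCm38.p6, 250 bases before to 50 after each start) were found for 158 of the 220 genes named by rule and for 15 of the 17 heat shock genes that rose. The heat shock element was searched on both strands as 3 units, GAA, TTC and GAA, in that order with any 2 bases between units. It lay in 4 of the 15 windows (26.7%), against 0.663% of 27018 genes with a window. Over the whole list, called or not, it lay in 5 of 24 windows (20.8%), so these shares do not test the rises. The Hspd1 and Hspe1 windows hold the same stretch on opposite strands. The stretch is shown as the clearest case, on the minus strand of chr1:55088013-55088132, with 2 overlapping matches in capitals. A match is a description of letters, not evidence of a bound factor.
Hspd1: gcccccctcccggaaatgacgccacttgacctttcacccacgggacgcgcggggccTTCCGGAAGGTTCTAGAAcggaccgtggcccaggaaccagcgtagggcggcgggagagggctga

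Targets of p53 and of NRF2 rose. Of 30 p53 targets, 22 rose and 3 fell (median 0.62), and of 26 NRF2 targets, which defend against oxidants, 20 rose and 1, Slc7a11, fell (median 0.49). Zmat3, an RNA-binding p53 target, read 10.59, 10.44 and 10.58 against 8.69, 8.86 and 8.90 and rose by 1.72, with no overlap. Trp53inp1 and Plk2, further p53 targets, rose by 1.44 and 1.33, as did Mdm2, which encodes the ligase that degrades p53, by 1.37. Hmox1, heme oxygenase, read 12.61, 12.34 and 12.42 against 10.96, 10.99 and 10.97 and rose by 1.48. The carbonyl reductase gene Cbr3 rose by 1.38 and Osgin1 by 1.32. The counts parted with the choice of controls: against all 6 scrambled arrays p53 targets still held 19 rises and 2 falls, whereas NRF2 targets held 9 rises and 0 falls (median 0.20). After LL34 shRNA, 6 p53 targets rose and 6 fell, and 1 NRF2 target rose and 20 fell.

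Genes of the amino acid response fell. ATF4 is the factor that is translated when amino acids or ER folding capacity run short, and its targets import and make amino acids. Of 34 measured targets, 23 fell and 3 rose (median −0.50). The cystine exchanger gene Slc7a11 read 9.08, 9.48 and 9.19 against 11.65, 11.49 and 11.77, and the stress-induced nuclear protein gene Nupr1 read 8.18, 8.51 and 8.14 against 10.63, 10.35 and 10.59. In both genes the groups were more than 1.5 apart at their nearest arrays. Slc7a11, which is also in the NRF2 list, fell by 2.39 (0.94 on a dimmer probe set). Nupr1 fell by 2.25, the mitochondrial folate gene Aldh1l2 by 2.5, and the lipoprotein receptor gene Vldlr fell by 2.25.

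Enzymes that load tRNAs with amino acids moved with these genes. Of 19 cytosolic aminoacyl-tRNA synthetase genes and their kin, 10 fell and 4 rose (median −0.26). Iars, for isoleucine, read 11.53, 11.63 and 11.57 against 12.60, 12.53 and 12.55 and fell by 0.98, far beyond the spread. Lars, for leucine, fell by 1.06, Eprs, for glutamate and proline, by 0.86 and Mars1, for methionine, by 0.67. From the citric acid cycle list, Pck2, which makes phosphoenolpyruvate in mitochondria, fell by 1.55. Of 38 ER folding genes, 11 fell (28.9%, beside 24.7% of genes above the median level, where 36 of the 38 lay) and 3 rose. The falls included the disulfide isomerase gene Pdia5 at −2.30, the translocon gene Sec61a1 at −0.90, the ER-stress gene Herpud1 at −0.78 and the chaperone gene Hyou1 at −0.54.

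These falls depended on which scrambled arrays were used. With all 6, the ATF4 list held 4 falls and 4 rises (median −0.08, where all genes had a median of 0.13) and the synthetase list 3 falls and 3 rises. Slc7a11 read −1.44 (limma adjusted p = 0.0686), Mars1 −0.38 (0.15), Herpud1 −0.37 (0.261) and Pck2 −0.67 (0.32), and none of these was called. Aldh1l2 at −1.58 (0.0402) and Vldlr at −1.5 (0.0185) shrank by 1.5 times or more but were called, and Nupr1 at −1.62 (0.00553) and Iars at −0.66 (0.0219) were called too. After LL34 shRNA, against the scrambled arrays of that set, 27 ATF4 targets rose and 2 fell and 11 synthetase genes rose and 1 fell. Of the 23 ATF4 targets that fell after NANCI shRNA, 21 rose there.

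**Figure D4:**
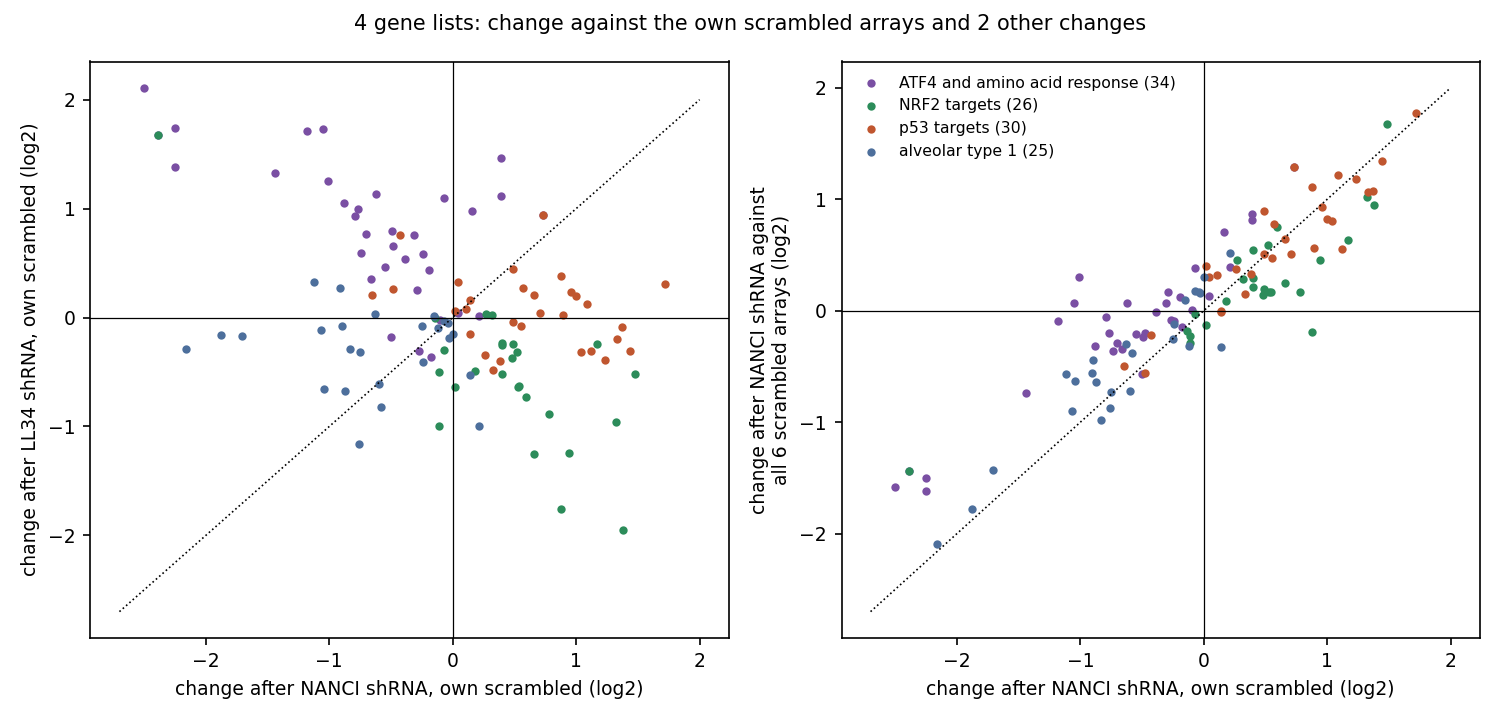
Change after NANCI shRNA against its own scrambled arrays (both horizontal axes, log2) for members of 4 lists, plotted against the change after LL34 shRNA (left) and against the NANCI change computed with all 6 scrambled arrays (right, which shares arrays with the horizontal axis). On the left most ATF4 points (34 genes) lie in the upper left and most NRF2 points (26) in the lower right, and on the right most ATF4 and NRF2 points lie nearer to 0 than on the horizontal axis. Dotted lines mark equal values.

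Promoter windows of the ATF4 targets that fell are shown because the list moved together. The C/EBP-ATF composite element was searched as TGATGNAA on both strands. It lay in 7 of the 20 windows of ATF4 targets that fell (35%) and in 4 of 6 windows of synthetase genes that fell. The share was 4.51% of 27018 genes with a window and 3.99% of the 2382 windows of all named genes that fell. Over the whole 2 lists, called or not, it lay in 8 of 27 (29.6%) and 4 of 12 windows (33.3%). An excess over all genes was thus present in the whole lists, and these shares do not test the falls. Stretches of 120 bases that end before the start are printed for 6 genes of the 2 lists, with the match in capitals; others with a match, such as Gars, are left out. Chac1, Asns and Tars were chosen after their values were seen, and fell by 1.18, 0.49 and 0.35. None of these 3 was called against all 6 scrambled arrays (−0.09, −0.24 and −0.02, limma adjusted p = 0.92, 0.254 and 0.958). Slc7a11 has 2 matches, 66 and 47 bases before its start, on opposite strands. The match lies 110 bases before the start of Nupr1, 200 before that of Vldlr, 193 before that of Chac1, 23 before that of Asns and 15 before that of Tars. The stretches are chr3:50443616-50443735 (minus strand), chr7:126625517-126625636 (minus), chr19:27216770-27216889 (plus), chr2:119350993-119351112 (plus), chr6:7693210-7693329 (minus) and chr15:11399659-11399778 (minus), in the order below.
Slc7a11: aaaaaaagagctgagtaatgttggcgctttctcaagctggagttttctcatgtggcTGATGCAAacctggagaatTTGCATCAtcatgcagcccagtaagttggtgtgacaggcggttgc
Nupr1: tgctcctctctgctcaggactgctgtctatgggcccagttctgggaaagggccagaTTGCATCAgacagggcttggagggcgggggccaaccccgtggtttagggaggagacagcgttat
Vldlr: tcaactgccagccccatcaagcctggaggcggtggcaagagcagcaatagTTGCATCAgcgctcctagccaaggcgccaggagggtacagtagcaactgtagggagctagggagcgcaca
Chac1: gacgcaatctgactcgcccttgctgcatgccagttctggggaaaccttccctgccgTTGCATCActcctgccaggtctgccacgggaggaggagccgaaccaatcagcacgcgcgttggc
Asns: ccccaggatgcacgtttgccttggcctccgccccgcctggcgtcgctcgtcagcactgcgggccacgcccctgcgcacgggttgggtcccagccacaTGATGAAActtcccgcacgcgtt
Tars: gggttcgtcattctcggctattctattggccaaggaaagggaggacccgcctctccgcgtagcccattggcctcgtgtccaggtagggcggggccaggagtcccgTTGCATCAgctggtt

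For the NRF2 targets the antioxidant response element was searched as TGACNNNGC, a shorter and more common string. It lay in 7 of the 15 windows of members that rose (46.7%), against 14% of all genes with a window. The whole list, called or not, had it in 8 of 21 windows (38.1%), so these shares do not test the rises. Gclm, a glutathione synthesis subunit gene whose window is shown as the member with the largest rise among those with a match, rose by 1.17 and was chosen after its values were seen. It read 0.63 against all 6 scrambled arrays (limma adjusted p = 0.155). Its stretch is chr3:122245367-122245486 on the plus strand, with the match 134 bases before the start in capitals.
Gclm: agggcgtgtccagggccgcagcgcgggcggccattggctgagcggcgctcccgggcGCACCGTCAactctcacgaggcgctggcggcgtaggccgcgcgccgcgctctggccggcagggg

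Mitochondrial genes rose more often than they fell, mostly by small amounts. Of 59 respiratory chain subunit genes, 24 rose and 7 fell (median 0.17, with 4 falls without NANCI_shRNA replicate 3 or NANCI_control replicate 3), of 23 citric acid cycle genes 13 rose and 6 fell (median 0.32), and of 61 mitochondrial ribosomal protein genes 28 rose and 9 fell (median 0.18). Against all 6 scrambled arrays these counts were 21 and 3, 8 and 3, and 26 and 3. After LL34 shRNA they were 20 and 0 (median 0.19), 5 and 4 (median 0.04), and 27 and 3 (median 0.22). Counts of rises in the respiratory chain and mitochondrial ribosome lists were thus similar after both shRNAs. The genes were mostly not the same, since 7 of the 24 and 8 of the 28 that rose after NANCI shRNA also rose after LL34 shRNA. A further 4 and 5 members fell after NANCI shRNA and rose after LL34 shRNA. The complex III gene Uqcrfs1 read 9.19, 8.96 and 8.97 against 8.08, 8.05 and 8.11 and rose by 0.96. Another complex III gene, Uqcrb, read 11.63, 11.79 and 11.33 against 12.58, 12.29 and 12.46 and fell by 0.86, so subunits of the same complex parted beyond the spread. The cycle enzyme genes Fh1, Idh2 and Suclg1 rose by 0.86, 0.76 and 0.75, with Idh2 at 0.36 against all 6 scrambled arrays (limma adjusted p = 0.265). Mrps31 and Mrps22, of the small mitochondrial subunit, rose by 1.00 and 0.91 and Mrpl10, of the large one, fell by 0.89 (−0.24 on a dimmer probe set, not called). Of 42 cytosolic ribosomal protein genes, 10 rose (23.8%, near the share of genes above the median level) and 2 fell (median 0.10), and 16 rose without NANCI_shRNA replicate 3. Rpl7 rose by 0.74, Rps27 by 0.52 and Rps4x by 0.50, and Rps24 fell by 1.16. Such genes have many near-identical copies, and the dimmer probe set of Rpl7 read 0.14 (adjusted p = 0.347). Rps27 lost its call without NANCI_shRNA replicate 1 (0.40, adjusted p = 0.0511), without NANCI_control replicate 1 (0.45, 0.0556) and in a fit of these 6 arrays alone (0.0550).

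Of 29 glycolysis and hypoxia genes, 12 rose and 2 fell, but 4 rose and 2 fell against all 6 scrambled arrays. The glucose transporter gene Slc2a1 rose by 0.91 and the glycolysis genes Tpi1 and Pgam1 by 0.68 and 0.57, while the hypoxia gene Ndrg1 fell by 0.50. Slc2a1 (0.44, adjusted p = 0.247) and Tpi1 (0.42, adjusted p = 0.0717) were not called against all 6 scrambled arrays, and dimmer probe sets of Slc2a1, Pgam1 and Ndrg1 read 0.17, −0.21 and −0.13 with no call. Cholesterol genes were split, 8 up and 5 down of 25 (3 down without NANCI_shRNA replicate 2), and 2 up and 6 down against all 6 scrambled arrays (median −0.12). The sterol enzyme genes Cyp51 and Msmo1 each rose by 0.68, the mevalonate enzyme gene Pmvk fell by 0.77 and Npc1, which carries sterol out of lysosomes, by 0.95. A dimmer probe set of Npc1 read −0.09 and was not called. With all 6 scrambled arrays Cyp51 turned to −0.07 (adjusted p = 0.917) and Msmo1 read 0.30 (0.353).

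Degradation pathways outside the proteasome were mixed. Of 33 autophagy genes, 9 rose and 5 fell, and of 38 lysosome genes, 11 rose and 8 fell (8 and 3, and 9 and 5, against all 6 scrambled arrays). The scramblase gene Atg9b rose by 2.19, Atg5 by 0.73 and Wipi2 by 0.68, while Atg10, which acts beside Atg5 in the same conjugation system, fell by 1.41. The galactosidase gene Gla rose by 1.35 and the lysosomal genes Ctsz and Idua fell by 1.44 and 0.97, with Idua at −0.60 against all 6 scrambled arrays (limma adjusted p = 0.0682).

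Cell cycle genes changed in both directions. Of 46 mitosis and G2/M genes, 18 rose and 7 fell, and of 43 DNA replication and S phase genes, 8 rose and 12 fell, a share of falls (27.9%) near that of genes above the median level. The mitotic kinase gene Aurkb read 11.80, 11.66 and 11.84 against 10.92, 10.95 and 10.99, without overlap, and rose by 0.82. The checkpoint kinase gene Bub1b rose by 0.77 and the centromere histone gene Cenpa by 0.65. Mki67, the proliferation marker, read 11.26, 11.54 and 11.61 against 12.19, 12.20 and 12.28 and fell by 0.76. The DNA ligase gene Lig1, the histone message binding gene Slbp and the replication genes Rfc5 and Gins2 fell by 0.76, 0.71, 0.61 and 0.59. Compared with all 6 scrambled arrays, 8 mitosis genes rose and 7 fell and 9 S phase genes rose and 6 fell, and Aurkb (0.48, adjusted p = 0.114), Bub1b (0.32, 0.351) and Gins2 (−0.07, 0.874) were not called. After LL34 shRNA, 2 mitosis genes rose and 25 fell, and 14 of those 25 had risen after NANCI shRNA. Among the 18 measured replication-dependent histone genes, 6 rose and 4 fell (2 falls with a replicate block, or without NANCI_shRNA replicate 3 or NANCI_control replicate 1 or 3). They were led by H4c14 (1.85), H1f1 (−1.39), H2ac20 (−1.14) and H4c9 (1.09). Histone genes have near-identical copies, whose signals may be shared. H1f1 read −0.84 against all 6 scrambled arrays (adjusted p = 0.0936).

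Clock, chromatin and small RNA genes changed more modestly. Of 18 circadian clock genes, 9 fell and 1 rose (median −0.21), but 2 fell and 1 rose against all 6 scrambled arrays (median 0.02). Against their own scrambled arrays Per3 fell by 0.88, Clock by 0.57, Bhlhe40 by 0.51 and Nfil3 by 0.48. Per3 (−0.54, adjusted p = 0.0782), Bhlhe40 (−0.34, 0.0534) and Nfil3 (−0.20, 0.411) lost their calls against all 6 scrambled arrays. Clock genes oscillate, and times of day were not given in the sources used here. Of 47 chromatin modifier genes, 15 rose and 11 fell, but the 4 largest changes were falls: the deacetylase gene Hdac2 and the Polycomb ligase gene Ring1 by 1.05 each, the acetyltransferase gene Ep300 by 1.00 and the remodelling ATPase gene Smarca2 by 0.66. Among 18 small RNA processing genes 4 rose and 4 fell. Prkra, Dicer1 and Tarbp2, which work together in microRNA maturation, rose by 0.81, 0.80 and 0.65. Dicer1 and Tarbp2 rose after LL34 shRNA as well, by 0.78 and 0.62.

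Interferon response genes fell and NF-kB genes rose. Of 32 interferon response genes, 19 fell and 0 rose (median −0.42). Usp18, which removes ISG15 and dampens the receptor, read 9.83, 9.33 and 9.46 against 11.01, 10.73 and 10.88, without overlap, and fell by 1.33. The regulator gene Irf7 fell by 1.22, Ifi27 by 1.14 and Xaf1 by 1.03. With all 6 scrambled arrays 9 fell and 1 rose, and Usp18 (−0.55, adjusted p = 0.375), Irf7 (−0.77, 0.0531) and Xaf1 (−0.56, 0.154) were not called. After LL34 shRNA 15 of these genes fell and 0 rose. Of 36 NF-kB and epithelial chemokine genes, 12 rose and 2 fell. The chemokine gene Ccl2 read 9.17, 9.13 and 9.34 against 7.81, 7.83 and 7.47 and rose by 1.51. Tnfaip3, a feedback inhibitor gene, rose by 1.27, and Ptgs2, for an inducible prostaglandin synthase, rose by 0.86. Ccl5, another chemokine gene, fell by 0.90. Cd14, the endotoxin co-receptor gene from the leukocyte list, rose by 1.73. Of 21 class I and antigen processing genes, 3 rose and 2 fell. Without NANCI_shRNA replicate 1 or NANCI_control replicate 3, 1 rose, and without NANCI_control replicate 1, 4 fell. The class I gene H2-Q10 rose by 1.76, though a dimmer probe set read −0.02 and was not called. The peptide trimming gene Erap1 was at −1.02, Tapbpl at −0.36 and Psme1 at 0.28. Tapbpl lost its call against all 6 scrambled arrays (−0.28, adjusted p = 0.0549), and Psme1 lost it without NANCI_shRNA replicate 1 or 2, without NANCI_control replicate 2 or 3 and in a fit of the 6 arrays alone (adjusted p of 0.0561 to 0.0754).

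Signalling lists changed in both directions. In the BMP and TGF-beta, FGF and Wnt lists 32.3%, 31.2% and 26.9% fell and 19.4%, 21.9% and 7.69% rose. Of genes above the median level 24.7% fell and 24.2% rose, so several of these shares lay near that background. Of 31 BMP and TGF-beta genes, 10 fell and 6 rose (3 rose without NANCI_shRNA replicate 1, and 6 fell and 2 rose against all 6 scrambled arrays). The receptor gene Tgfbr2 read 10.16, 10.12 and 10.17 against 11.27, 11.38 and 11.27 and fell by 1.16, the activin subunit gene Inhba fell by 1.18 and the inhibitory gene Smad7 rose by 0.99. Of 32 FGF and ERK genes, 7 rose and 10 fell, but only 4 to 6 fell without NANCI_shRNA replicate 1, 2 or 3 or NANCI_control replicate 1. The ligand gene Hbegf rose by 0.84, the phosphatase gene Dusp4 by 0.73, and Errfi1, an inhibitor of the EGF receptor, fell by 0.78. Of 26 Wnt genes, 7 fell and 2 rose (3 and 2 against all 6 scrambled arrays), including the feedback ligase gene Rnf43 (−0.58), the pseudoreceptor gene Bambi (−0.47), the secreted inhibitor gene Sfrp2 (−0.68) and the R-spondin receptor gene Lgr5 (−0.61). Sfrp2 and Lgr5 were not called against all 6 scrambled arrays: Sfrp2 read −0.32 (adjusted p = 0.281) and Lgr5 −0.30 (0.32), and their dimmer probe sets read −0.03 and −0.08 with no call. Lgr5 also lost its call without NANCI_control replicate 3 (−0.54, 0.0510). The Wnt and norrin receptor gene Fzd4 fell by 1.85.

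Notch, Hedgehog, retinoic acid and insulin genes followed the same mixed pattern. Of 23 Notch genes, 5 rose and 3 fell (3 rose with a replicate block, or without NANCI_shRNA replicate 1 or NANCI_control replicate 1), with the target genes Hey2 and Nrarp up by 0.89 and 0.88 and the ligand genes Jag2 up by 0.65 and Jag1 down by 0.51. Of 17 Hedgehog genes, 5 fell and 1 rose (2 and 1 against all 6 scrambled arrays). The co-receptor gene Cdon fell by 1.17, the ligand gene Shh by 0.74, the effector gene Gli2 by 0.45 and the receptor gene Ptch1 by 0.43. Shh (−0.32, adjusted p = 0.333) and Gli2 (−0.19, adjusted p = 0.381) were not called against all 6 scrambled arrays. Of 29 retinoic acid genes, 5 rose and 7 fell (2 and 6 with all 6 scrambled arrays), with the receptor gene Rara at 0.64, the reductase gene Dhrs3 at −0.87 and Meis2, a target in development, at −0.68. Of 22 insulin and IGF genes, 8 fell and 3 rose (5 and 2 with all 6 scrambled arrays). The adaptor gene Grb10, which restrains the insulin receptor, fell by 1.32 (−0.86 against all 6 scrambled arrays, adjusted p = 0.034) and Igfbp6 by 1.12. The kinase subunit gene Pik3r3 and the RNA-binding gene Igf2bp3 rose by 0.92 and 0.84, and read 0.46 (adjusted p = 0.237) and 0.43 (0.207) there. Of 33 G-protein genes, 5 rose and 7 fell (5 and 4 with all 6 scrambled arrays), with Rgs16, which speeds G-protein shutoff, up by 1.93, Gna15 up by 0.80 and Arrb1 and Gnai1 down by 1.29 and 0.60. Of 24 immediate early genes, 6 rose and 6 fell, including Junb (1.40), Btg2 (1.12), Ier3 (0.90) and Klf4 (−0.82), and Btg2 read 0.55 against all 6 scrambled arrays (adjusted p = 0.229).

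Noncoding genes were examined as classes after their values were seen. Of the 80 measured snoRNA genes, which guide RNA modification, 21 rose and 0 fell (median 0.20), and of 15 Snhg genes, which carry snoRNAs in their introns, 9 rose and 0 fell (median 0.43). The snoRNA share that rose, 26.2%, is near the 24.2% of all genes above the median level, where 57 of the 80 snoRNA genes and 11 of the 15 Snhg genes lay. Among 1911 other lncRNA genes 5.29% rose and 4.03% fell, but only 252 of them lay above that level. Snhg3 read 10.47, 10.22 and 10.06 against 9.32, 9.06 and 9.42 and rose by 0.98, and Snora69 read 9.95, 9.88 and 9.91 against 8.62, 8.55 and 8.75 and rose by 1.27. In neither did the groups overlap. Snhg6, Snhg10, Snhg12, Snhg15, Snhg20 and Snhg7 rose by 0.68 to 0.89, and Snhg1 and Snhg5 read −0.09 and 0.19 with no call. With a replicate left out, 14 to 20 snoRNA genes and 8 or 9 Snhg genes rose. Against all 6 scrambled arrays 23 snoRNA genes rose and 1 fell and 9 Snhg genes rose. After LL34 shRNA, 9 snoRNA genes rose and 1 fell, and 0 Snhg genes rose and 1 fell. The labelled cDNA was primed on poly(A) tails, which mature snoRNAs lack, and whether these probe sets read precursors was not tested.

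**Figure D5:**
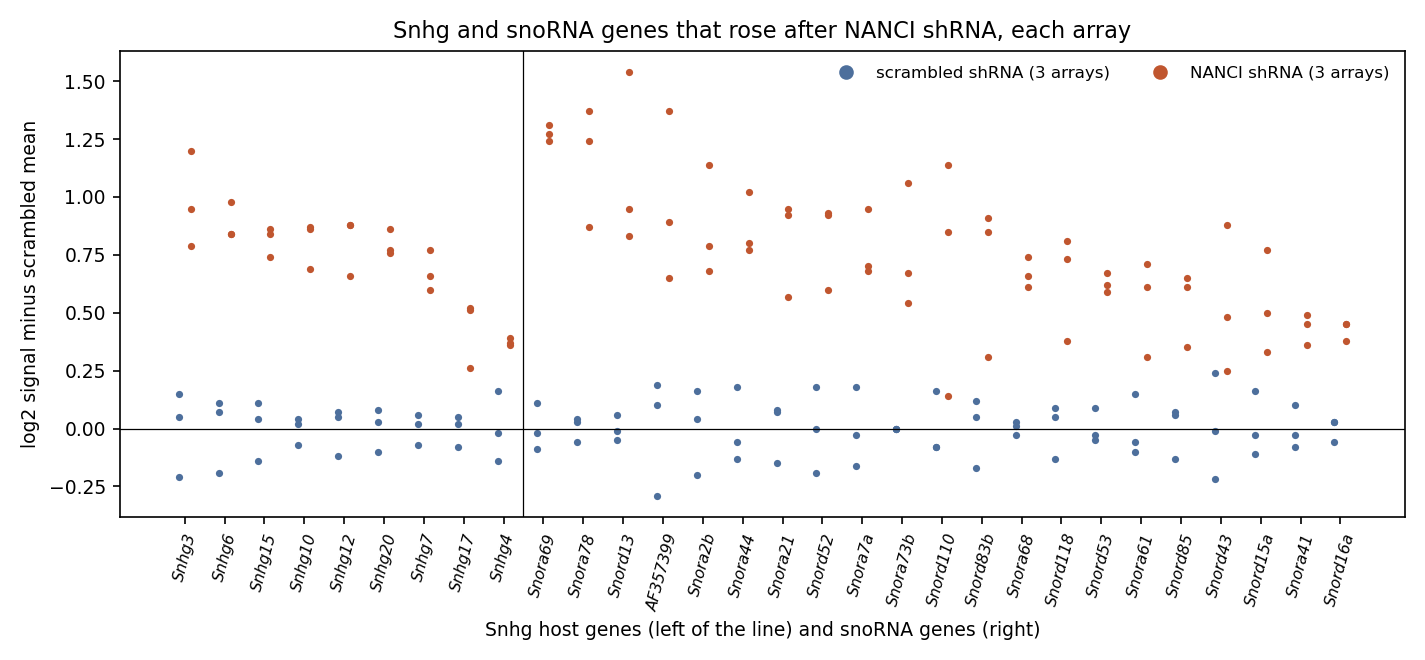
Log2 signal of each of the 6 arrays, minus the scrambled mean (vertical axis), for the 9 Snhg genes (left of the line) and 21 snoRNA genes (right) that rose (horizontal axis), blue for scrambled and orange for NANCI shRNA. In Snhg genes all orange points lie above 0.25, while Snord110 has an orange point within the blue range.

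Among other noncoding RNAs, also chosen after their values were seen, Norad, an RNA that binds Pumilio proteins, read 8.56, 8.60 and 8.85 against 9.34, 9.37 and 9.66 and fell by 0.79. Airn, the antisense RNA of the imprinted Igf2r locus, fell by 0.82, and Firre, an X-linked nuclear RNA, by 0.49. Trp53cor1, a p53-induced RNA, fell by 0.43, while most other p53 targets rose, and it was not called against all 6 scrambled arrays (−0.22, limma adjusted p = 0.268). Rab26os, an opposite-strand transcript by its symbol, rose by 1.76.

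Of 478 miRNA genes, 17 rose and 19 fell, so 7.53% were called, against 26.8% of all named genes. Most were dim, with a median scrambled level of 5.51 and only 90 of the 478 above the median level of named genes. Since calls followed the level, the 26.8% is not a like background for these miRNA genes. Their probe sets read RNA of the locus in a poly(A)-primed sample and do not measure mature miRNAs. Mature sequences from RefSeq (build GRCm38.p6) are shown, with bases 2 to 8, the seed, in capitals, for 7 loci chosen after their values were seen: Mir130a and Mir301, which rose and share a seed, 4 loci of a single cluster, and Mir30e, the deepest miRNA fall. Mir17 and Mir20a share a seed, but Mir17 was not called, and Mir20b, of the same miRNA family, fell by 0.32. The other loci that rose, among them Mir3066 (0.93) and Mir677 (0.87), are not shown.
miR-130a-3p: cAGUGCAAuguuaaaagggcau
miR-301a-3p: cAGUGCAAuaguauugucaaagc
miR-17-5p: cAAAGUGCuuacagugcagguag
miR-20a-5p: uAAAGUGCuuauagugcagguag
miR-18a-5p: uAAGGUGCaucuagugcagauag
miR-19a-3p: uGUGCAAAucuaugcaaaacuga
miR-30e-5p: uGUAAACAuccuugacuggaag

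Mir18, Mir19a and Mir20a belong to the miR-17 to miR-92 cluster, transcribed as 1 RNA. Mir19a read 7.62, 7.41 and 7.06 against 6.37, 6.26 and 6.72 and rose by 0.92 (SE 0.15, limma adjusted p = 0.00106), with the groups apart. Mir18 rose by 0.74, Mir20a by 0.37, and Mir17 of the same cluster read 0.07 (adjusted p = 0.762). Mir301 and Mir130a rose by 0.83 and 0.55. Mir30e read 5.88, 5.24 and 5.38 against 6.95, 6.27 and 7.26 and fell by 1.33 (SE 0.362, adjusted p = 0.0229), at dim and scattered signals. Against all 6 scrambled arrays Mir19a read 1.55 (0.00887) and Mir130a 0.87 (0.0141). Single arrays carried some of these calls. That of Mir18 was lost without NANCI_shRNA replicate 1 (0.57) or NANCI_control replicate 2 (0.64), that of Mir130a without replicate 1 or 2 of either group (0.42 to 0.58), and that of Mir30e without NANCI_shRNA replicate 2 or 3 or NANCI_control replicate 1 or 3 (−1.11 to −1.27).

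Further large changes lay mostly outside the lists. After Hspa1b, Atg9b and Slc4a11, they included rises of the phosphatidate phosphatase gene Lpin1 (1.96), of the lipid synthesis list, the neuritin gene Nrn1 (1.87) and the lipid transfer gene Pitpnc1 (1.85). They were followed by Tbc1d8, Plcxd2, Depdc7, Tigit, Tnfrsf23, Aldh4a1, Ctxn1, Mreg, H2aw and Pmm1, which rose by 1.49 to 1.76. Aldh4a1, of mitochondrial proline breakdown, read 9.37, 9.03 and 9.09 against 7.58 on all 3 scrambled arrays. Tigit, a lymphocyte inhibitory receptor gene, read 8.14, 7.57 and 7.69 against 6.33, 6.14 and 6.01, while the leukocyte marker Cd3e stayed at 6.38. Falls included Sprr1a (−2.67), a cornified envelope gene and the only fall of the basal list, Adgrd1 (−2.30), the ankyrin gene Ank2 (−2.11), Pkhd1l1 (−2.07), Myct1 (−2.05), the secreted factor gene Ndnf (−2.01), mesothelin (Msln, −2.0), Popdc3 (−1.94) and Flrt1 (−1.80). Ndnf was the brightest of these, with 10.59, 10.83 and 10.75 against 12.81, 12.69 and 12.71. Myct1 was not called against all 6 scrambled arrays (−1.24, limma adjusted p = 0.0789).

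The change after NANCI shRNA differed from that after LL34 shRNA in 5409 named genes (24.4%) by the test of the difference. Of the 3019 genes that fell after NANCI shRNA, 713 also fell after LL34 shRNA and 644 rose. Of the 2919 that rose, 459 also rose and 581 fell. The largest opposite pair was B4galnt2, which read 8.32, 8.24 and 8.40 against 11.03, 11.42 and 11.49 here and rose by 3.02 after LL34 shRNA, a difference of −6.01 (SE 0.182, limma adjusted p = 2.65e-08). Cox6a2 (a muscle-type cytochrome oxidase subunit gene), Aldh1l2, Cldn1, Slc7a11 and Vldlr differed by −3.99 to −4.82. In the other direction Aldh1a1, the retinaldehyde dehydrogenase gene, rose by 0.65 here and fell by 3.04 there, a difference of 3.69. The 2 scrambled groups themselves differed in such genes. B4galnt2 averaged 11.31 in the NANCI control and 7.98 in the LL34 control, Cox6a2 10.52 and 8.55, and Aldh1a1 10.01 and 11.31. Opposite responses and unlike controls cannot be told apart. With all 6 scrambled arrays B4galnt2 (−1.32, adjusted p = 0.298), Cox6a2 (−1.56, adjusted p = 0.0577) and Aldh1a1 (−0.00362, adjusted p = 0.994) were not called. Examples that moved in the same direction in both, chosen after their values were seen, were Etv5, Tek, Plxna2, Ppl, Jag1, Dicer1 and Tarbp2, whose differences lay between −0.16 and 0.21 and were not called.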

How the data were processed

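RNA of MLE12 cells was read on 12 arrays, 3 per group. The authors deposited log2 signals, 1 per probe set and array. Per the submitters' processing notes the tools were oligo, RMA and limma, with no version stated. Names of probe sets came from the annotation of the platform: 23521 of 41345 had 1 symbol, 1814 several and 16010 none. Of 22180 genes, 1082 had several probe sets, and the brightest by its mean over 12 arrays stood for the gene. The fit was limma 3.58.1 in R 4.3.3 on all 12 arrays with 4 group means, 8 residual degrees of freedom and Benjamini-Hochberg adjustment at 0.05. It was tested on simulated data. The number of arrays limits the precision.

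Named genes were Sfta3-ps, Nkx2-1, 25 rises and 25 falls with the largest changes and groups apart (placeholder symbols left out), up to 4 called members of each of 50 lists by size of change, 6 differences per direction, and the surfactant and lung factor genes given whatever their values. The members and lists were chosen with earlier results of these data known. Lists are described by counts and medians, without set tests. Alternatives were other normalizations, a level filter, the 6 arrays alone, all 6 scrambled arrays, a replicate block, a trended prior and each replicate left out. Leaving out LL34_control replicate 3 was added after seeing the data.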

Additional observations from a re-analysis of the deposited data

Results flagged for a closer look

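In 12 genes the change after NANCI shRNA differed most from the change after LL34 shRNA, tested by limma as the difference of the 2 changes. The difference, NANCI minus LL34, was 3.69 for Aldh1a1, 3.46 for Mrgprb3, 3.33 for Cbr3, 2.98 for Hspa1b, 2.82 for Plau and 2.73 for E2f5. It was −6.01 for B4galnt2, −4.82 for Cox6a2, −4.61 for Aldh1l2, −4.18 for Cldn1, −4.07 for Slc7a11 and −3.99 for Vldlr. Limma adjusted p-values ran from 1.82e-08 to 6.67e-06. In 11 of the 12 genes the 2 changes were called in opposite directions, and Hspa1b was not called after LL34 shRNA (−0.12, adjusted p = 0.713). Scrambled means also differed between the sets, as in Aldh1l2 (10.91 for NANCI, 9.08 for LL34) and Slc7a11 (11.64 and 9.75). In Hspa1b they were nearer (9.0 and 9.44). Opposite responses and unlike controls cannot be told apart. Against all 6 scrambled arrays Mrgprb3 read 0.39 (adjusted p = 0.451) and E2f5 0.67 (0.0482).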

How the results depend on the processing

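For NANCI_shRNA minus NANCI_control, the count of called probe sets stayed within 1.5 times of 8228 under every alternative run: 8690 after quantile normalization over all arrays, 7847 with centred arrays, 8413 at or above the median level, 8353 with a trended prior, 7504 in the 6 arrays alone, 6221 against all 6 scrambled arrays, 6699 to 7409 with a NANCI replicate left out and 9551 without LL34_control replicate 3. For the difference between knockdowns (7780) leaving out a NANCI replicate gave 6591 to 7497. With all 6 scrambled arrays, 3899 of the 6221 were higher, against 4258 of 8228. The replicate number as a block gave 6906 calls, and 6320 for the difference. Same-numbered arrays did not deviate together (correlations of −0.00902, 0.0123 and −0.0568), so the pairing is only a number. Of 251 called genes the text could name, 43 lost their call and 2 turned with all 6 scrambled arrays, Cyp51 (−0.0665) and Aldh1a1 (−0.00362). The block ended 8 calls, the 6 arrays alone 6, and leaving out a NANCI replicate 6 to 15. Of 104 list counts, 42 moved by over 1.5 times with all 6 scrambled arrays and at most 10 under any other alternative. Of 393 called genes with several probe sets, 92 had another called in the same direction and 6 in the opposite one. Causes were not tested. Dim signals limit calls: 2.09% of genes passed in the lowest of 4 level bins.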
